A study of Mus musculus with 8 samples.

Results

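NMDA receptors are glutamate-gated channels of the synapse, and 7 genes encode their subunits: Grin1, Grin2a, Grin2b, Grin2c, Grin2d, Grin3a and Grin3b. The genes were chosen by name as one receptor family, and all 7 were among the 26711 features measured in nuclei of mouse primary visual cortex (V1). Every receptor holds the GluN1 subunit made from Grin1, which binds the co-agonist glycine or D-serine, together with glutamate-binding GluN2 or glycine-binding GluN3 subunits. The GluN2 subunit sets how long the channel stays open and how strongly magnesium blocks it, and in developing visual cortex receptors rich in GluN2B give way to receptors with GluN2A as animals mature and see light.

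All mice were GRfl/fl, carrying loxP-flanked alleles of Nr3c1, the glucocorticoid receptor (GR) gene, and V1 was taken at P21. At birth they had received AAV2/5 with the astrocyte promoter GfaABC1D and the reporter EGFP-CAAX. The Cre vector gave astrocyte GR-KO animals, and the vector with ΔCre, which does not recombine, gave GR-Con animals. Animals were then reared normally (NR) or in the dark (DR). Crossing both factors gave 4 groups, NR or DR by GR-Con or GR-KO, of 1 male and 1 female library each, 8 libraries in all. Controls thus carried the same floxed alleles, viral capsid, promoter and reporter as the knockouts. The vector acts in astrocytes alone only as far as its design restricts it, and the study reads astrocyte specificity from EGFP expression across cell types. Nuclei were sorted as DRAQ5-positive and GFP-negative, according to the methods of the study. Values of a group are given with the male library first.

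The libraries held 9517 to 15161 nuclei each, 102330 in total, with a median of 14861 to 29223 UMIs (unique transcript molecules counted once each) per nucleus. The deposited annotation named 20 cell types, of which 15 had at least 10 nuclei in every library: 8 excitatory types, 4 inhibitory types, astrocytes, oligodendrocytes and oligodendrocyte precursors (OPC). Of 74 marker genes, 65 were highest in the type they mark, and the exceptions were all markers of single cortical layers, such as Rorb for L4 and Osr1 for L6IT. In both L5PT and L6IT, 0 of 2 measured markers were highest in their own type, and in L4 1 of 3. These names rest on the deposited annotation. Cre UMIs were 0 in astrocytes of all 4 GR-Con libraries and 43 to 86 in those of the 4 GR-KO libraries. EGFP UMIs in astrocytes were 64 to 192 in the 8 libraries. To sort GFP-positive nuclei the study used another reporter, EGFP-KASH, which targets the nuclear membrane. How far the GFP-negative sort removed transduced astrocytes was not tested. Nr3c1 in astrocytes was 207 to 263 CPM (UMIs of a gene scaled to a common library total) in GR-Con and 268 to 284 CPM in GR-KO. Gene totals from a 3' kit do not show which exons remain, so they do not check the deletion. Across the libraries, 1220 barcode sequences occurred in 2 or more. The summed level of 8 excitatory neuron markers in astrocytes was highest in both NR GR-KO libraries (514 and 449 CPM, against 278 to 362 CPM in the other 6).

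All 7 genes lie on autosomes of GRCm38 (mm10). Grin1 spans 28.0 kb of chromosome 2 (25291181 to 25319187, minus strand). Grin2a spans 427.7 kb of chromosome 16 (9567898 to 9995560, minus strand) and Grin2b 460.3 kb of chromosome 6 (135713233 to 136173511, minus strand). Grin2c is short, at 18.1 kb of chromosome 11 (115249169 to 115267243, minus strand), and Grin2d takes 46.5 kb of chromosome 7 (45831883 to 45878378, minus strand). Grin3a spans 184.1 kb of chromosome 4 (49661611 to 49845744, minus strand) and Grin3b 6.48 kb of chromosome 10 (79970715 to 79977190, plus strand). Nuclear UMIs include introns, so levels of different genes are compared here only per kilobase of gene. The Grin2a to Grin2b ratio is not corrected for length, so it is compared between types and conditions and its sign does not say which gene was the more abundant. Ppp3r2 lies inside Grin3a on the same strand but was at 1.77 CPM on average.

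Start-site sequences are shown for the 2 subunits with an entry in the table that the results turn on, the astrocyte gene Grin2c and the gene most often higher in darkness, Grin2d. Both are RefSeq GRCm38.p6 sequence from 250 bases before to 50 bases after the annotated start, written 5' to 3' on the gene's strand, with matches to GGGCGG (the GC box) in capitals. Grin2c lies at chr11:115267194-115267493 and Grin2d at chr7:45866632-45866931, both on the minus strand, and the Grin2d start falls inside the GENCODE gene.
Grin2c: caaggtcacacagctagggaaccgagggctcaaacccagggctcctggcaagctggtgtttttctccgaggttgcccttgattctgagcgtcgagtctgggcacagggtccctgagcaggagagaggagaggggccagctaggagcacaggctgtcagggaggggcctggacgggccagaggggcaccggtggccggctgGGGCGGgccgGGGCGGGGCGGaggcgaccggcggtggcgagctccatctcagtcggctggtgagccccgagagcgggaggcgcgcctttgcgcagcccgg
Grin2d: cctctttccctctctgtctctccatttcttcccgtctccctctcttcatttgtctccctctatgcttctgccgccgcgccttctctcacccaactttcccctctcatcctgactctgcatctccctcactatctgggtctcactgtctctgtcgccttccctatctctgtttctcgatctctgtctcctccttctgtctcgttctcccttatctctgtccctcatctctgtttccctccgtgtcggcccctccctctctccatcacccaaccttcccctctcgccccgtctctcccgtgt
The Grin2c stretch was rich in G and C, with a higher share in 9.09% of 32851 promoters, and held 3 GC boxes in the bases just before the start. GC boxes on either strand occurred in 35.7% of all promoters. The Grin2d stretch held no GC box on either strand. It was instead a pyrimidine tract, 83.0% C and T against a median of 49.7%, and only 0.00609% of promoters had a higher share.

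The obligatory subunit gene varied least between neurons. Grin1 ranged from 220 ± 10.7 CPM (SD, n = 8 libraries) in L6b to 324 ± 17.8 CPM in L6CT, a 1.47-fold range over 12 neuron types. Neighbouring neuron types overlapped in their libraries at every step of this order. The fall came outside neurons, to 40.9 ± 4.97 CPM in OPC, 23.1 ± 7.65 CPM in astrocytes and 15.7 ± 4.90 CPM in oligodendrocytes, and the L6b and OPC libraries did not overlap.

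**Figure D1:**
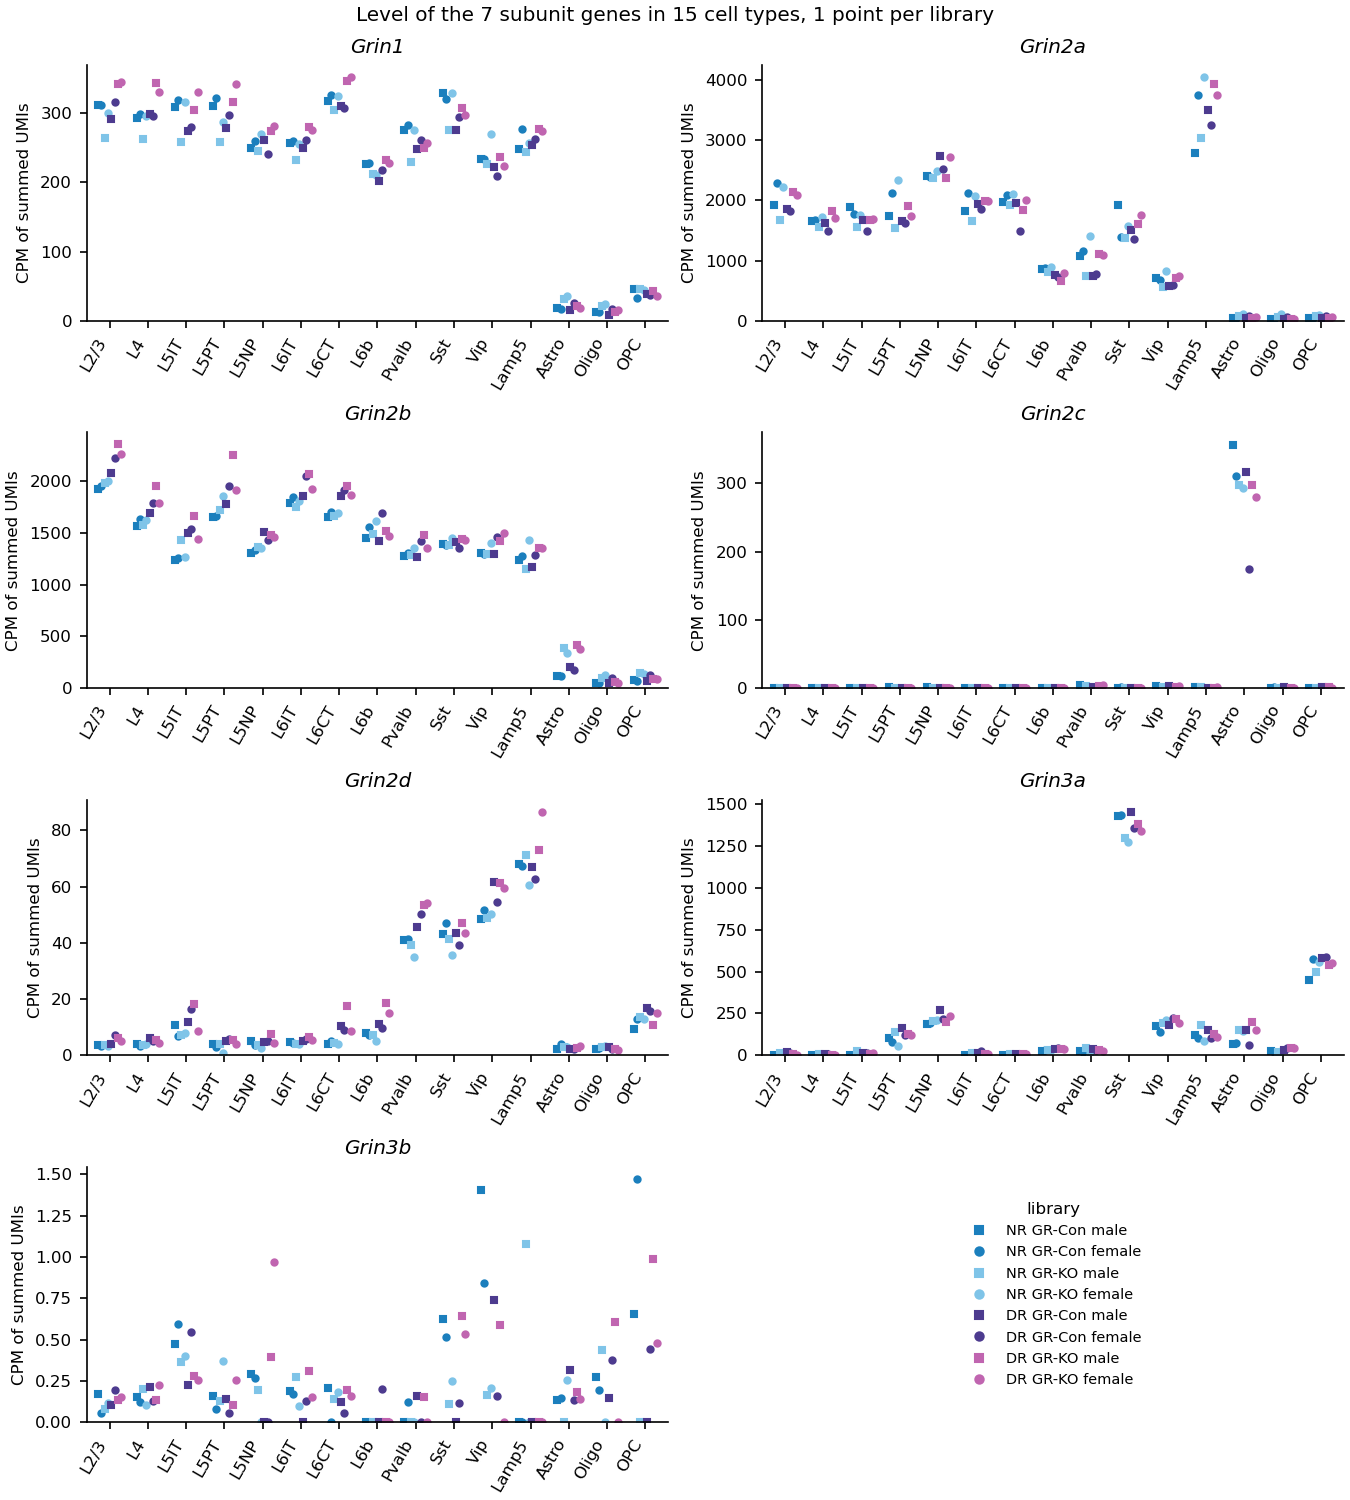
CPM of the 7 subunit genes (vertical axes, linear, from 0) in 15 cell types, with 1 point per library, coloured by group and shaped by sex. Grin1 is nearly level across neurons, Grin2c stands up only in astrocytes, Grin2d in the 4 inhibitory types and Grin3a in Sst neurons and OPC.

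Grin2a, the subunit gene of mature fast receptors, was far more uneven than Grin2b, its juvenile counterpart. Lamp5 interneurons held most Grin2a, 3506 ± 445 CPM, from 2787 in the lowest library to 4042 CPM in the highest. L5NP neurons followed at 2499 ± 152 CPM, and no library of either type overlapped the next type down. Grin2a then ran from 2002 ± 215 CPM in L2/3 to 674 ± 89.8 CPM in Vip interneurons, a 5.20-fold range over neurons. Grin2b ranged only from 1283 ± 94.3 CPM in Lamp5 to 2097 ± 163 CPM in L2/3, or 1.63-fold. Lamp5 thus stood at the top of one order and at the bottom of the other. Per kilobase of gene and averaged over neuron types, Grin1 reached 9.92, Grin2a 4.11 and Grin2b 3.45 CPM per kb.

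The rarest interneurons differed most. Chandelier cells (ChC, 70 nuclei, with at least 10 in only 3 libraries) held 53.2, 139 and 152 CPM of Grin2a in those 3 libraries, from 67 UMIs in all. All 3 were DR libraries, whereas the other types are averaged over NR and DR. Their Grin2b, at 1330 to 1429 CPM, was like that of other interneurons. After each nucleus was thinned to 2000 UMIs, 87.1% of ChC nuclei had a Grin2b UMI and none of Grin2a. The same share was 38.1% in Vip, 35.1% in Pvalb, 25.7% in L6b and 3.17% in L2/3, where 94.6% of nuclei had both.

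Grin2c and Grin2d, the genes of the slower or less magnesium-sensitive GluN2 subunits, had separate homes. Grin2c was an astrocyte gene at 291 ± 52.5 CPM, against 2.80 ± 1.28 CPM in Pvalb, the next of the 15 types, and 0.13 to 0.49 CPM in excitatory types. Thinned to 2000 UMIs, 40.7% of astrocytes and 0.05% of L2/3 nuclei had a Grin2c UMI (73.0% and 0.475% without thinning, at median depths of 6107 and 21863 UMIs). Grin2d was at 42.6 to 69.6 CPM in the 4 inhibitory types found in every library and 3.98 to 11.0 CPM in excitatory types. The class means differed 8.22-fold. Lamp5 led these 4 inhibitory types at 69.6 ± 7.99 CPM, and ChC was at 74.1 CPM in the 3 libraries with at least 10 nuclei. OPC held 13.4 ± 2.46 CPM, and the Sst and OPC libraries did not overlap.

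The GluN3 genes were the least alike of all. Grin3a, whose product lowers calcium entry and is known from immature synapses, was at 1372 ± 67.0 CPM in Sst interneurons and 542 ± 46.0 CPM in OPC. L5NP (214 ± 27.3 CPM), Vip (191 ± 27.1 CPM), astrocytes (124 ± 50.8 CPM), Lamp5 (122 ± 30.3 CPM) and L5PT (113 ± 35.2 CPM) formed a middle range. L4 had the lowest mean over all 8 libraries, 4.19 ± 2.00 CPM, 328-fold below Sst. These means span groups that differed: in the 2 NR GR-Con libraries alone, L5IT was lowest at 1.42 CPM, L4 was at 2.29 CPM, and astrocytes were at 69.8 CPM, below L5PT at 88.7 CPM. Libraries of Sst, OPC and L5NP did not overlap, whereas those of L5NP and Vip did. In thinned nuclei 83.9% of Sst, 61.6% of OPC and 0.83% of L4 nuclei had a Grin3a UMI. Grin3b did not exceed 0.51 CPM in any of the 15 types. The filter on low counts removed it from most tests, leaving 1 excitatory type for rearing over both genotypes and 2 for the interaction. It was called in none of the tests left.

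As a description, the genes whose levels over the 15 types ran most like each subunit were taken from 9191 genes by Pearson's r of log2(CPM + 1); the points share their libraries. For Grin1 they included Unc13a (r = 0.987), which primes synaptic vesicles, and Celsr3. Grin2b ran closest to Pacsin1 (0.99), Gm1043 and Rtn3, and Grin2a to AC149090.1 (0.965), Slf2 and the vesicle calcium sensor gene Syt1. Grin2c ran closest to Col4a5 (0.99), Prdm16 and Cyp4f15. Grin2d had looser matches in Grip1os2 (0.91), Kcnmb2 and Pcgf6, and Grin3a the loosest in Crebl2 (0.85), Pcnp and Elfn1.

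The Grin2a to Grin2b ratio, given as log2 of Grin2a over Grin2b UMIs, separated neuron types more than any condition did. It was 1.44 ± 0.14 in Lamp5 and 0.83 ± 0.07 in L5NP. Excitatory types of layers 2 to 6 other than L5NP and L6b lay between -0.07 (L2/3) and 0.26 (L5IT). It was lowest in Pvalb (-0.44 ± 0.33), L6b (-0.94 ± 0.17), Vip (-1.03 ± 0.18) and ChC (-3.72 ± 0.80, n = 3, all DR).

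Averaged over the 8 excitatory types, the ratio was 0.13 ± 0.11 in the 4 NR libraries and -0.09 ± 0.11 in the 4 DR libraries. The difference was -0.22, a 0.859-fold ratio, and did not pass an exact permutation test (two-sided, p = 0.0857, where 0.0286 is the smallest p of 70 arrangements). The NR libraries were at 0.15, 0.20, -0.03 and 0.20 (NR GR-Con, then NR GR-KO) and the DR libraries at -0.01, -0.22, -0.14 and 0.01. The NR GR-KO male library lay among the DR libraries. Without it the difference was -0.27 and the groups no longer overlapped, which fixes the exact permutation p at its smallest, 0.0286, and without each of the other 7 libraries in turn the exact permutation p was 0.0857 to 0.143. All 8 excitatory types and 11 of 12 neuron types had a lower mean ratio in DR, Lamp5 being the exception at 0.08. In L4 (-0.17), L6CT (-0.34) and L6b (-0.22) the 4 DR libraries all lay below the 4 NR libraries, each with an exact permutation p = 0.0286 that became 0.114 after adjustment over 12 types.

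**Figure D2:**
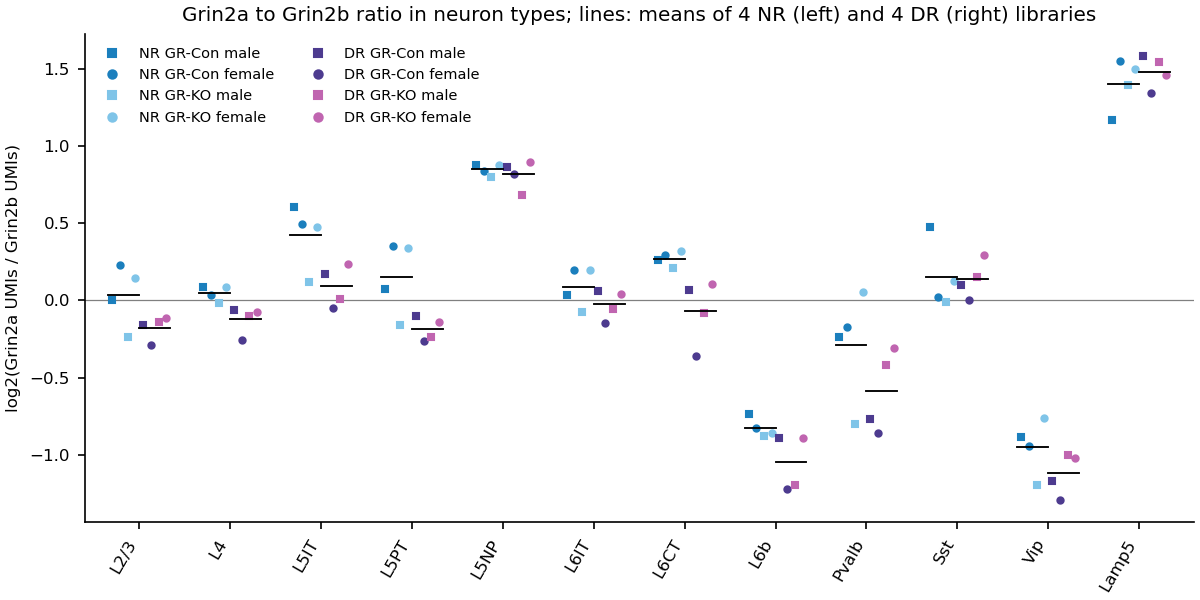
Log2 ratio of Grin2a to Grin2b UMIs (vertical axis) in 12 neuron types, 1 point per library, with lines at the means of the 4 NR and the 4 DR libraries. Types are far apart, from 1.44 in Lamp5 to -1.03 in Vip, and the DR line is the lower of the pair in 11 of 12 types.

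In inhibitory types the mean difference by rearing was -0.10 (exact permutation p = 0.343), and it ran opposite ways in the genotypes. It was -0.25 in GR-Con, without overlap of the libraries, and 0.05 in GR-KO, beside -0.29 and -0.15 in excitatory types. By genotype over both rearings the mean ratio of excitatory types differed by -0.02 (exact permutation p = 0.886) and that of inhibitory types by 0.07 (exact permutation p = 0.571). These also join opposite directions. GR-KO minus GR-Con was -0.09 in NR and 0.05 in DR in excitatory types, and -0.08 in NR and 0.22 in DR in inhibitory types, where the DR libraries did not overlap. The ratio was lower in GR-KO in 11 of 12 neuron types in NR and in 2 of 12 in DR. The types share the same libraries. In NR GR-KO the inhibitory mean was -0.15 in the male and 0.23 in the female library, against 0.13 and 0.11 in NR GR-Con. In excitatory types it was -0.03 and 0.20, against 0.15 and 0.20. With 2 libraries per group these differences within a genotype or rearing were not tested. No neuron type had an adjusted exact permutation p below 0.943 for genotype.

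Rearing was then tested gene by gene, with both genotypes together, 4 DR against 4 NR libraries in each cell type. Grin2d rose in darkness in 5 excitatory types and in Pvalb interneurons, Grin3a rose in oligodendrocytes, and no member fell. Of 82 member and type pairs, 7 passed the edgeR likelihood ratio test after Benjamini-Hochberg adjustment, all higher in DR, whereas 2.69% of all gene and type pairs were called higher, 2.7% lower and 5.4% either way. The median log2 change of the member pairs was 0.10, and that of all genes lay between -0.01 and 0.0012 depending on the type. In sums over nuclei, a change in the share of nuclei that express a gene and a change per nucleus cannot be told apart. Shares of nuclei were not compared by rearing.

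In L6CT neurons, which project to the thalamus, Grin2d was 4.01, 4.90, 4.42 and 4.00 CPM in the NR libraries and 10.5, 8.91, 17.4 and 8.47 CPM in the DR libraries. Every DR library was above every NR library, and the log2 change was 1.38 (SE 0.23, adjusted p = 4.5e-07, edgeR likelihood ratio test). In L2/3 the NR libraries lay between 3.35 and 3.55 CPM and the DR libraries between 4.07 and 7.17 CPM (log2 change 0.69, SE 0.19, adjusted p = 0.0038). L4 moved from a mean of 3.60 to 5.28 CPM (log2 change 0.58, adjusted p = 0.0026). In Pvalb, where Grin2d is abundant, NR libraries were at 35.1 to 41.5 CPM and DR libraries at 45.5 to 54.3 CPM (log2 change 0.38, adjusted p = 0.0058).

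The other 2 calls for Grin2d were less firm. L5IT gave a log2 change of 0.76 (adjusted p = 0.043) with overlapping libraries, and L6b one of 0.92 (adjusted p = 0.017) without overlap. Both kept their call in 3 of 8 fits that each left out 1 library. The L4 and L6CT calls held in 8 of 8 such fits, and the L2/3 and Pvalb calls were lost only without the DR GR-KO male library (adjusted p = 0.051 and 0.064). Without that library 4 member pairs were called in place of 7 (2.47% of all pairs in that fit), without the NR GR-KO male library 13 (5.61%) and without the DR GR-Con female library 15 (4.55%). The edgeR quasi-likelihood test called 5 pairs (3.48% of all pairs), among them Grin2d in L2/3, L4, L6CT and Pvalb, and DESeq2 called 11 (5.19%).

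The fitted Grin2d change was above 0 in all 12 neuron types, the smallest being 0.04 in Sst, which turned to -0.01 in 2 of the fits that left out a library. The DR libraries lay above the NR libraries without overlap in 8 of 15 types, where 4.82% of gene and type pairs did so, and in 6 of 8 excitatory types (6.44% over excitatory types). Beside these changes, the summed level of 5 inhibitory markers in excitatory types was 2.0 to 10.9 CPM, against 597 to 2337 CPM in inhibitory types themselves. In 7 of 8 excitatory types the library with the highest sum was an NR GR-KO library, and in L5PT it was the NR GR-Con male library.

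**Figure D3:**
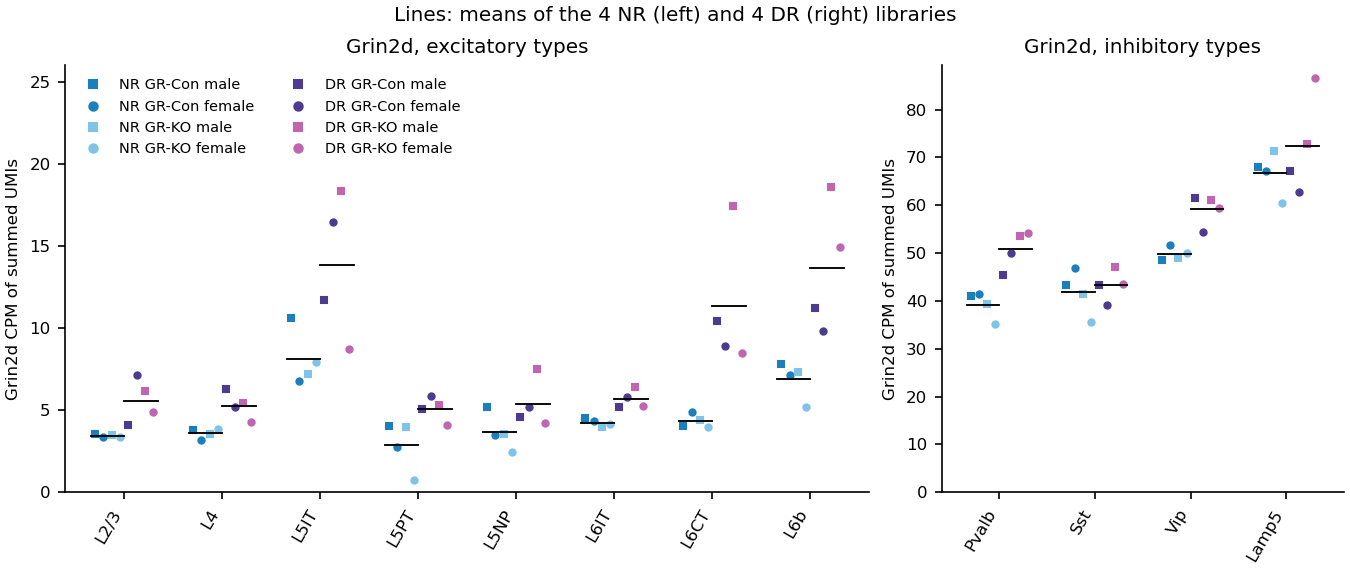
Grin2d CPM (vertical axes, linear, from 0) in 8 excitatory and 4 inhibitory types, 1 point per library, with lines at the means of the 4 NR (left) and 4 DR (right) libraries. The DR line is above the NR line in each excitatory type, and in L6CT the DR libraries start at 8.47 CPM where the NR libraries end at 4.90 CPM.

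Grin2b showed a smaller and more even difference that the main test did not call. In L2/3 the NR libraries were at 1919, 1957, 1979 and 2000 CPM and the DR libraries at 2078, 2225, 2356 and 2262 CPM. All 4 DR libraries were above all 4 NR libraries in 6 of 8 excitatory types (L2/3, L4, L5IT, L5NP, L6IT and L6CT). Over excitatory types 6.44% of gene and type pairs had this pattern, with 1705 of 13850 genes in L2/3 and 485 of 13992 in L5NP. DR over NR means of Grin2b in the 6 types were 1.10 to 1.18. The edgeR likelihood ratio test gave adjusted p of 0.11 to 0.42 for these 6, and L6b was at -0.01. DESeq2 called L2/3, L4, L5IT and L6CT, with log2 changes of 0.19 to 0.24. Grin2a was called in no type by rearing over both genotypes, with log2 changes of -0.23 to 0.12 in excitatory types, and its libraries separated only in L6b (798 ± 79.5 CPM over all 8), where all DR libraries were lower (7.13% of gene and type pairs in excitatory types had this pattern). Grin1 was called in no type either, with -0.02 to 0.18 in excitatory types.

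In oligodendrocytes Grin3a rose in darkness. The NR libraries held 27.7, 20.2, 19.0 and 25.2 CPM and the DR libraries 28.6, 40.2, 43.6 and 44.1 CPM, without overlap (log2 change 0.76, SE 0.17, adjusted p = 0.0013, edgeR likelihood ratio test). The call held in 8 of 8 fits that left out 1 library. OPC held 542 CPM of Grin3a, and the part of OPC RNA or OPC-like nuclei in this rise was not tested.

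Within GR-Con animals alone, Grin3a rose in darkness in 5 of 8 excitatory types, from very low levels. L5IT held 1.06 and 1.79 CPM in NR GR-Con and 15.2 and 10.9 CPM in DR GR-Con (log2 change 3.19, SE 0.35, adjusted p = 5.5e-17, edgeR likelihood ratio test). L2/3 held 3.76 and 3.53 CPM in NR and 17.4 and 12.5 CPM in DR (log2 change 1.99, SE 0.23, adjusted p = 1.1e-14). L6IT (2.37), L4 (1.45) and L6CT (1.35) were called as well, and the fitted change was above 0 in all 8.

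In this comparison 8 member pairs of 82 were called, 7 higher and 1 lower, against 2.25% of all pairs (1.41% higher and 0.84% lower). The other calls were Grin2d in L6CT (1.12) and L4 (0.72) and a fall of Grin2a in Pvalb. Grin2a fell by 0.55 on the log2 scale (adjusted p = 0.0010, edgeR likelihood ratio test), from 1079 and 1153 CPM to 744 and 786 CPM. In GR-KO animals Pvalb held 740 and 1405 CPM of Grin2a in NR and 1103 and 1093 CPM in DR. The quasi-likelihood test called 3 pairs (0.495% of all), namely Grin3a in L2/3 and L5IT and Grin2a in Pvalb, and DESeq2 called 8 (1.51%). Leaving out the NR GR-Con female library left 4 calls (0.9% of all pairs) and leaving out the DR GR-Con male library gave 19 (5.2%).

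In GR-KO animals Grin3a was called in no excitatory type by rearing. L5IT held 22.5 and 2.52 CPM in NR GR-KO and 9.60 and 11.0 CPM in DR GR-KO. L2/3 held 15.1 and 4.57 CPM in NR GR-KO and 9.49 and 3.87 CPM in DR GR-KO. L6IT held 10.3 and 4.85 CPM in NR GR-KO and 6.08 and 4.79 CPM in DR GR-KO. Beside these, L6IT held 3.92 and 3.47 CPM in NR GR-Con and 13.7 and 25.5 CPM in DR GR-Con. The NR GR-KO male library was the highest of the NR libraries for Grin3a in L2/3, L4, L5IT, L6IT and L6CT. The difference between genotypes was tested directly as an interaction, taken as the GR-KO minus GR-Con log2 change of NR animals less that of DR animals. Grin3a passed in L6IT (2.84, SE 0.55, adjusted p = 8.3e-04, edgeR likelihood ratio test), L6CT (1.31, adjusted p = 0.012) and L4 (2.03, adjusted p = 0.040).

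With Grin2b in oligodendrocytes (1.46, adjusted p = 0.028) these made 4 calls of 83 pairs, where 0.181% of all pairs were called. The quasi-likelihood test called 0 of them (0.00276% of all pairs, with 20 member pairs at an unadjusted p under 0.05) and DESeq2 called 3 (0.130%). The L6IT call held in 7 of 8 fits and was lost without the DR GR-KO female library, the L6CT call held in 3 and the L4 and oligodendrocyte calls in 2 of 8. Each of these fits left 1 library in a group, and the number of calls changed with the library left out. A fit with a sex term called 7 (0.59%). In oligodendrocytes the 8 excitatory marker genes together had a mean of 280 CPM in NR GR-Con, 396 CPM in NR GR-KO, 324 CPM in DR GR-Con and 362 CPM in DR GR-KO, with 8 of 8 markers higher in GR-KO in NR and 3 of 8 in DR. Their part in the oligodendrocyte call was not tested.

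**Figure D4:**
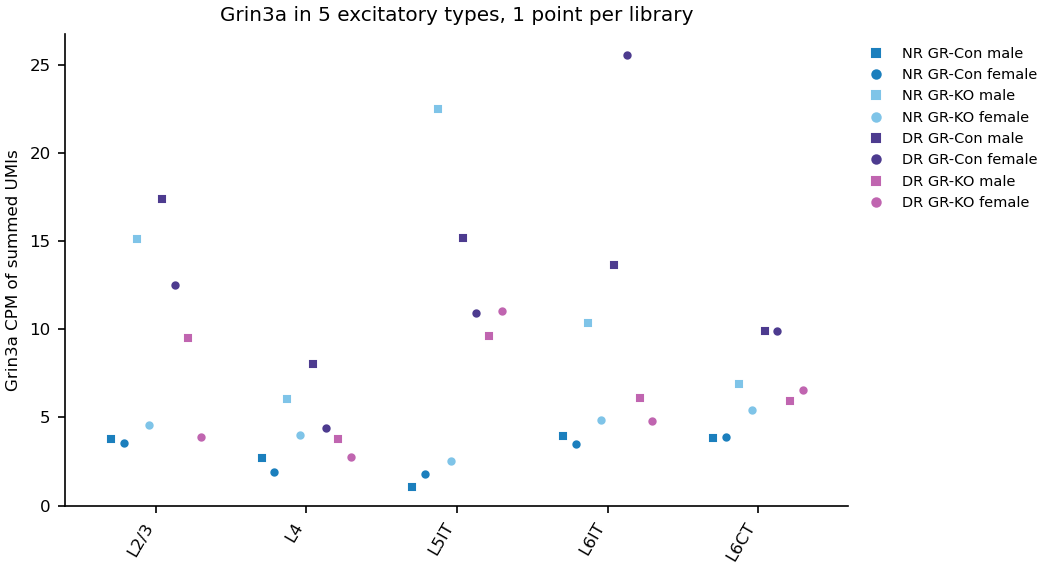
Grin3a CPM (vertical axis, linear, from 0) in 5 excitatory types, 1 point per library. Both NR GR-Con libraries stay below 4 CPM in each type, both DR GR-Con libraries are above them, and the NR GR-KO male library reaches 22.5 CPM in L5IT.

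Sst interneurons and OPC hold far more Grin3a than these types. The Sst gene itself was at 0.2 to 4.0 CPM in excitatory types, against 37.1 CPM in the Sst type, and its mean was lower in DR in all 8 excitatory types. Among all libraries it was highest in the NR GR-KO male library in 8 of 8 excitatory types (2.77 to 3.97 CPM), the library that was also highest in NR for Grin3a in 6 of the 8. The summed level of the OPC markers was 0.8 to 4.9 CPM in excitatory types, against 923 CPM in OPC. The part of RNA from other cells in the Grin3a values was not tested.

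Other calls for rearing in GR-KO animals fell mostly on non-neuronal types. With 18 types fitted, 16 of 90 member pairs were called, 5 higher and 11 lower (3.66% of all pairs, 1.69% higher and 1.96% lower). Grin2d rose in L6CT (1.63, adjusted p = 2.7e-04, edgeR likelihood ratio test), L6b (1.31), L2/3 (0.74) and Pvalb (0.56), and Grin3a rose in oligodendrocytes (1.01, adjusted p = 1.2e-05). Grin1, Grin2a and Grin2b were each lower in VLMC (vascular leptomeningeal cells, -2.68, -3.52 and -2.59) and oligodendrocytes (-0.63, -1.16 and -0.95), Grin1 and Grin2a in astrocytes, and Grin2a and Grin2b in OPC. The summed excitatory markers were lower on average in DR GR-KO than in NR GR-KO in each of these types, with overlapping libraries in oligodendrocytes. In VLMC they were 1616 and 2478 CPM in NR GR-KO and 239 and 544 CPM in DR GR-KO, and their group means went from 482 to 330 CPM in astrocytes, 396 to 362 CPM in oligodendrocytes and 885 to 727 CPM in OPC. Shank2 (-3.67), Dab1 (-3.28) and Lin7a (-4.49) fell in VLMC in the same comparison. The part of neuronal RNA in these falls was not tested. A fall of Grin2c in L6CT (-2.33) rested on levels below 0.5 CPM. The quasi-likelihood test called 10 pairs (0.857%) and DESeq2 12 (2.53%), and without the DR GR-KO male library 6 were called (0.826%).

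The astrocyte vector was compared over both rearings, 4 GR-KO against 4 GR-Con libraries. Grin2b rose in astrocytes, the cells the promoter of the vector targets, and no neuron type gave a call for any member. Astrocyte Grin2b was 117 and 119 CPM in NR GR-Con, 385 and 342 CPM in NR GR-KO, 204 and 171 CPM in DR GR-Con and 411 and 378 CPM in DR GR-KO. All 4 GR-KO libraries were above all 4 GR-Con libraries, as were 1.21% of gene and type pairs over all 15 types and 593 of 14732 genes in astrocytes. The log2 change was 1.32 (SE 0.14, adjusted p = 5.6e-19, edgeR likelihood ratio test), a 2.50-fold rise that held in 8 of 8 fits leaving out a library and in the quasi-likelihood test (adjusted p = 3.6e-04).

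Of 82 member pairs 2 were called, against 0.395% of all pairs (0.174% higher), the other being Grin3a in astrocytes (0.88, SE 0.24, adjusted p = 0.0085). Its values were 66.3 and 73.3 CPM in NR GR-Con, 149 and 147 CPM in NR GR-KO, 149 and 60.5 CPM in DR GR-Con and 199 and 153 CPM in DR GR-KO, so the DR GR-Con male library reached the GR-KO range. That call held in 4 of 8 fits and failed the quasi-likelihood test (adjusted p = 0.078), which called 1 pair (0.196% of all pairs). DESeq2 called 2 (0.328%). Leaving out the NR GR-Con male, NR GR-Con female or DR GR-KO male library left 1 call (0.267%, 0.319% and 0.258% of all pairs). Leaving out the DR GR-Con female library gave 9 (0.712% of all pairs).

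Markers of excitatory neurons were also counted in astrocyte nuclei. The 8 excitatory markers together were 362 and 289 CPM in NR GR-Con, 514 and 449 CPM in NR GR-KO, 278 and 351 CPM in DR GR-Con and 323 and 337 CPM in DR GR-KO. All 8 were higher in GR-KO astrocytes in NR and 4 of 8 in DR. Divided by that sum, astrocyte Grin2b was 0.32 and 0.41 in NR GR-Con, 0.75 and 0.76 in NR GR-KO, 0.73 and 0.49 in DR GR-Con and 1.27 and 1.12 in DR GR-KO, against 0.44 to 0.55 in excitatory neurons. Within DR, where 4 of 8 markers were higher in GR-KO, both GR-KO libraries had more Grin2b than both GR-Con libraries, as CPM and per marker. In nuclei thinned to 2000 UMIs, 36.2% of astrocytes and 12.8% of oligodendrocytes had a Grin2b UMI (64.7% and 42.4% without thinning).

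**Figure D5:**
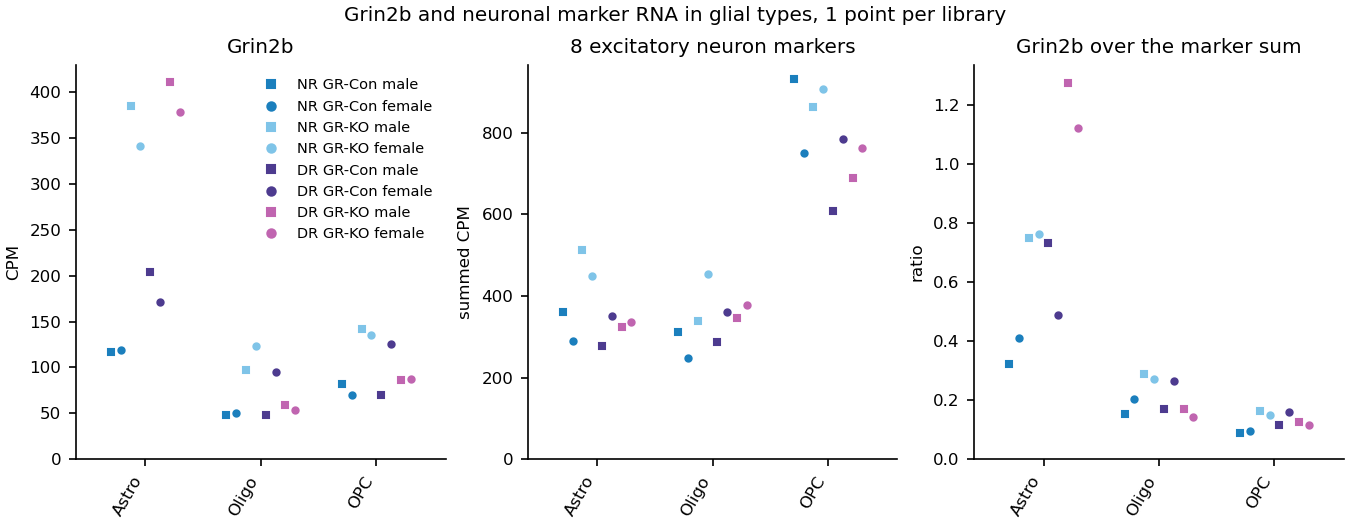
Grin2b CPM (left), the summed CPM of 8 excitatory neuron markers (middle) and the quotient of both (right) in astrocytes, oligodendrocytes and OPC, 1 point per library, linear axes from 0. In astrocytes the 4 GR-KO libraries lie at 342 CPM or more and the 4 GR-Con libraries at 204 CPM or less, while the marker sum is highest in the 2 NR GR-KO libraries.

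Within NR, 9 of 87 member pairs were called, all higher in GR-KO and all in glia (0.804% of all pairs, 0.491% higher). Astrocytes gave Grin2b (1.56, SE 0.15, adjusted p = 8.3e-22, edgeR likelihood ratio test), Grin3a (1.02), Grin2a (0.94) and Grin1 (0.89). Oligodendrocytes gave Grin2b (1.12), Grin2a (1.12) and Grin1 (0.76), and OPC Grin2a (0.86) and Grin2b (0.82). The excitatory markers were also higher in NR GR-KO oligodendrocytes, 8 of 8. In OPC 7 of 8 were higher, but the sums overlapped, at 932 and 750 CPM in NR GR-Con and 863 and 907 CPM in NR GR-KO. OPC Grin2a per marker sum was 0.060 to 0.063 in NR GR-Con and 0.10 to 0.12 in NR GR-KO. Oligodendrocyte Grin2b per marker sum was 0.15 and 0.20 in NR GR-Con and 0.29 and 0.27 in NR GR-KO. Over the 8 libraries it was 0.14 to 0.29, below the neuronal quotient. Oligodendrocyte Grin2a per marker sum was 0.12 and 0.16 in NR GR-Con and 0.19 and 0.24 in NR GR-KO. The part of neuronal RNA in the glial calls was not tested. The NR GR-KO libraries were also the deepest, with medians of 22828 and 29223 UMIs per nucleus over all types, against 14861 to 20161 in the other 6, and the part of depth was not tested. The quasi-likelihood test and DESeq2 each called 7 pairs (0.361% and 0.433%), and 16 were called without the NR GR-KO female library (2.16%).

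Within DR, 3 of 80 pairs were called (0.513% of all pairs): Grin2b in astrocytes (1.09, SE 0.21, adjusted p = 9.9e-05, edgeR likelihood ratio test), Grin2a in Pvalb (0.54, adjusted p = 0.0027) and a fall of Grin3a in L6IT by 1.83 on the log2 scale (adjusted p = 1.2e-04). The quasi-likelihood test called 0 (0.00431% of all pairs, with 14 member pairs at an unadjusted p under 0.05) and DESeq2 called 3 (0.372%). The call in astrocytes was lost without either DR GR-KO library. No pair was called without the DR GR-KO female library (0.116% of all pairs), 5 without the DR GR-Con female library (2.05%) and 12 without the DR GR-Con male library (3.23%). A fit with a sex term called 7 (1.16%). The Pvalb and L6IT calls use the same DR GR-Con libraries as the calls of Grin2a and Grin3a by rearing within GR-Con. The interaction for astrocyte Grin2b was 0.46 (SE 0.24) and did not pass (adjusted p = 1.0). Astrocyte Grin2c was called in neither rearing.

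Genes listed for a link to the receptor were read from 5 lists, beside the 5.4% of all gene and type pairs called by rearing. Action of a listed gene on the receptor was not tested. Among 12 scaffold genes of the postsynaptic density, 21 of 180 gene and type pairs rose in DR and 1 fell (12.2% called, edgeR likelihood ratio test), with a median log2 change of 0.14. Shank2 led with 9 of 15 types (0.32 to 0.69), followed by Dlgap3 and Dlgap4 with 5 types each, while Dlg1 fell in L6CT by 0.45 on the log2 scale. Among 18 kinase, phosphatase and Ras regulator genes, 23 of 270 pairs rose and 3 fell (9.63%, median 0.07). Fyn, a kinase that phosphorylates GluN2 subunits, rose in 6 types, Ptk2b in 5 and Rasgrf2 in 3 (1.03 in L5IT).

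Trafficking genes and partners were split, with 11 of 189 pairs higher and 9 lower (10.6%, median -0.05). Mdga1 rose in 6 of 10 types, by up to 2.44 in L6CT, and so gave 6 of the 11 rises. The data do not show that its product acts on the receptor. Ephb2, a receptor tyrosine kinase that binds NMDA receptors, rose in 3 types, whereas Grina and Lin7a fell in 2 types each. Of 8 genes that regulate subunit expression, 4 of 115 pairs rose (3.48%, median 0.08), 3 of them Dab1 and 1 Lrp8, both in the reelin pathway. Of 14 genes for supply of the co-agonists, 1 of 120 pairs rose (Slc1a4 in OPC, 0.79) and 1 fell (Phgdh, the first enzyme of serine synthesis, in L6CT by 1.07 on the log2 scale), or 1.67%. The shares of the regulator and co-agonist lists were below that of all pairs. In the quasi-likelihood test the shares were 10.0% for scaffolds, 7.78% for kinases, 6.88% for trafficking genes and 1.74% for regulators. Its share of all pairs is given above with the member calls. That test and DESeq2 each called 0 of the 120 co-agonist pairs, so the Slc1a4 and Phgdh changes are the less certain.

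By genotype over both rearings the same lists gave 4 calls, all in astrocytes. Shank2 (0.76, adjusted p = 5.7e-05, edgeR likelihood ratio test), Rasgrf1 (0.85, adjusted p = 2.4e-05) and Apba1 (0.62, adjusted p = 0.0015) rose in GR-KO and Prkca fell by 0.58 on the log2 scale (adjusted p = 0.018). This was 1 of 180 pairs for scaffolds (0.556%), 2 of 270 for kinases (0.741%) and 1 of 189 for trafficking genes (0.529%), near the 0.395% of all pairs, and no pair of the co-agonist or regulator lists was called. The quasi-likelihood test called 1 scaffold, 1 kinase (0.37%) and 1 trafficking pair, all higher in GR-KO, and so not the fall of Prkca.

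Within DR the calls lay in neurons instead, and all were higher in GR-KO. Trafficking genes gave 7 of 188 pairs (3.72%, 3 of the 7 being Mdga1), scaffolds 4 of 180 (2.22%) and kinases 1 of 270 (0.37%), beside 0.513% of all pairs. Homer1, which links receptors to the postsynaptic scaffold, rose in L4, L6CT, L6b and Sst (0.68 to 1.02), Ephb2 in L2/3, L4, L5IT and L6CT (0.50 to 0.92), Mdga1 in L2/3, L5IT and L6IT (0.77 to 1.60) and Ptpn5, a phosphatase that acts on GluN2B, in L4 (0.54, adjusted p = 0.012, edgeR likelihood ratio test). The quasi-likelihood test made none of these calls, and DESeq2 called 6 trafficking, 6 scaffold and 2 kinase pairs. Within NR, scaffolds gave 6 of 204 pairs (2.94%), kinases 4 of 304 (1.32%), trafficking genes 3 of 208 (1.44%) and regulators 2 of 127 (1.57%), beside 0.804% of all pairs. Dlgap2 and Rasgrf1 rose in both astrocytes and oligodendrocytes, by up to 1.51 and 1.05, and Reln in L4 (1.36) and astrocytes. Excitatory markers were higher in NR GR-KO in both glial types, 8 of 8 in each, and their part in these rises was not tested. In the same order of lists the quasi-likelihood test called 4, 3, 2 and 1 pairs. No pair of the co-agonist list was called within either rearing, and none of the regulator list within DR. The difference of these genotype effects between NR and DR passed in 4 pairs: Dlg2 (1.10) and Neto1 (1.28) in astrocytes, Dlgap2 in oligodendrocytes (1.79) and Ephb2 in L5IT (-0.86), NR minus DR, beside 0.181% of all pairs. In DR 4 of 8 excitatory markers were higher in GR-KO in astrocytes and 3 of 8 in oligodendrocytes, and their part in the glial differences was not tested either. None of these 4 was called by the quasi-likelihood test.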

How the data were processed

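Single-nucleus RNA was counted as UMIs per gene with a 10x 3' kit. The authors aligned reads to mm10 with Cell Ranger 8.0.1, filtered nuclei, removed doublets, clustered in Seurat 5.3.0 and deposited raw counts with the cell types used here; no doublets were removed again. Counts were summed per library and cell type and divided by the library total of that type (CPM). Library names give group and sex, with 1 male and 1 female per group, and the methods give 2 mice per group. Which of the 2 deposited replicate numbers a library has is not given; the tie within a group is arbitrary, and no result uses it. The authors also deposited the percent of mitochondrial UMIs per nucleus, which entered no result. P-values measure the spread between these libraries.

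Sums were tested in edgeR 4.0.16 (R 4.3.3) with the likelihood ratio test that the study used, TMM normalization, filterByExpr and Benjamini-Hochberg adjustment at 0.05 within each cell type, for types with at least 10 nuclei in every library of a fit. The quasi-likelihood test and DESeq2 1.42.0 were alternatives. The ratio of Grin2a to Grin2b was tested by exact permutation over libraries. Scripts were tested on simulated data, in which all 3 tests made more false calls than the adjusted p states (the quasi-likelihood test and DESeq2 in all but 1 comparison each) and the likelihood ratio test more than the quasi-likelihood test, so calls that the quasi-likelihood test did not make, those of DESeq2 alone included, are the less certain. Genes named beside the members are, for each list and comparison, up to 4 called in most types or with the largest fold. Some genes that met such a rule are not reported here. The members and lists were chosen with earlier results of these data known. Shares of nuclei cover counting error only.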

Additional observations from a re-analysis of the deposited data

Results flagged for a closer look

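In 79 sets of 8 libraries, 1 library stood far from the rest in 5, and chance alone flags about 1 in 20 such sets. The DR GR-Con female library was lowest for Grin2a in L6CT (1486 CPM) and for Grin2c in astrocytes (174 CPM). The NR GR-KO female library was highest for Grin1 in Vip (269.6 CPM), and the DR GR-KO female library for Grin2d in Lamp5 (86.7 CPM). The DR GR-KO male library had the lowest log2 ratio of Grin2a to Grin2b in L5NP (0.68).

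The genotype difference itself differed between NR and DR (NR minus DR, edgeR likelihood ratio test of the interaction) for Grin3a in L6IT (2.84), L4 (2.03) and L6CT (1.31) and for Grin2b in oligodendrocytes (1.46). The quasi-likelihood test called 0 of these 4. Excitatory markers in oligodendrocytes were higher in GR-KO for 8 of 8 genes in NR and 3 of 8 in DR, and their part was not tested.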

How the results depend on the processing

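The number of member and type pairs called depended on single libraries and on the test. With each library left out in turn it ran from 4 to 15 for rearing over both genotypes, 4 to 19 in GR-Con and 6 to 20 in GR-KO. It ran from 1 to 9 for genotype over both rearings, 7 to 16 in NR, 0 to 12 in DR and 0 to 10 for the interaction. DESeq2 called 11 pairs for rearing over both genotypes. The quasi-likelihood test called 3 for rearing in GR-Con, 10 in GR-KO, 1 for genotype over both rearings, 0 in DR and 0 for the interaction, and a sex term gave 7 in DR and 7 for the interaction. The cause of these differences was not tested. The share of all gene and type pairs called also changed with the library left out. It ran from 2.47% to 6.08% for rearing over both genotypes and from 0.258% to 0.76% for genotype over both rearings. With a library left out, each fit within a genotype or rearing, or for the interaction, had 1 library in a group. Its count is therefore not read as a result for the members.

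With a library left out, the difference of the log2 Grin2a to Grin2b ratio ran from -0.27 to -0.18 for rearing in excitatory types and from -0.18 to -0.04 in inhibitory types. For genotype it ran from -0.11 to 0.03 and from 0.0041 to 0.14, turning positive in excitatory types in 3 fits (0.018 to 0.034, with 0.027 between). The rearing change of Grin2b in L6b ran from -0.068 to 0.032, positive in 4 fits (the least 0.0020), and that of Grin2d in Sst from -0.012 to 0.11, negative in 2 (the other -0.011). No paired analysis was possible because the library names give group and sex but no replicate number; sex, which splits every group, was fitted as a term instead and gave the counts above, and elsewhere counts within 1.5 times the main ones. With the NR GR-Con libraries alone, 7 of 59 levels by cell type moved by more than the spread between libraries. Counts of calls kept within 1.5 times the main count with other size factors, no filter on low counts and equal numbers of nuclei. Low counts limit Grin3b and neuronal Grin2c.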
